A study of Drosophila melanogaster with 42 samples.

Results

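The 28 genes described here make, modify, organise or break down chitin, or are relatives of the enzymes that do. They were chosen by name from the 15038 genes of the deposited count table: every numbered Cht, Cda and Idgf gene, with kkv, Chs2, mmy, knk, rtv, serp, verm, reb and exp. By role they are 1 gene of precursor supply, 4 genes of chitin synthesis, 2 of chitin organisation, 5 chitin deacetylases, 10 chitinases and 6 imaginal disc growth factors. All 28 were among the 13672 genes that passed the filter on low counts. RNA came from whole flies in 42 libraries, 3 per stage for each genotype, Control and ERR mutant, with the stages in order WPP, P1, P2, P3 and P4, then A1 and finally A6. ERR is the single fly estrogen-related receptor, an orphan nuclear receptor. Every animal, control or mutant, was heat-treated on days 4 and 5 AEL, and an hsFLP transgene, a heat-inducible source of FLP recombinase, set the genotypes apart, so ERR and the transgene cannot be told apart as the source of a difference. The labels name no allele, do not spell out the stage abbreviations and leave unsaid if replicate libraries were made from different animals, so p-values measure only the spread between these libraries, which may be technical.

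Chitin is a polymer of N-acetylglucosamine that gives insect cuticle, tracheal lining and the peritrophic matrix of the gut their strength. A membrane-bound chitin synthase builds it from UDP-N-acetylglucosamine and extrudes it to the outside of the cell, where other proteins order the fibres and deacetylases remove part of the acetyl groups. At each moult and at metamorphosis chitinases degrade the old cuticle while a new one is laid down, so synthesis and turnover genes are switched on at different times. The imaginal disc growth factors are secreted proteins of the chitinase family that are thought to bind sugars without cutting them.

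Libraries held 4308848 to 7737140 counts, and levels are given as CPM, counts scaled to a common library size after TMM scaling of the library totals. A gene was called when its adjusted p in edgeR's quasi-likelihood test, adjusted by Benjamini-Hochberg over all 13672 genes, lay under 0.05; all adjusted p below come from that test. ERR itself was below every control library in every mutant library at each stage and was called lower at P4, A1 and A6, at A6 with 34.3, 35.4 and 37 CPM in controls against 5.96, 5.9 and 4.51 CPM in mutants. ERR mutant P1 replicate 1 stood apart: the testis transcript Mst87F was at 1.08 CPM in it and at 65.5 to 101 CPM in the other P1 libraries, and the male dosage compensation RNA roX1 at 4.19 against 220.4 to 317 CPM. The P1 calls are therefore given with and without it. In RNA of whole animals, fewer cells of a type and less RNA per cell cannot be told apart.

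In controls the genes were expressed in waves, with Cht5 and Cht10 highest at P1, kkv and knk at P2, serp, verm and Cda5 at P3 and most growth factor genes at P4. All 28 genes changed along the control course (adjusted p from 3.74e-27 for Cht10 to 0.0239 for Cht12), as did 12408 of all 13672 genes. The highest control mean was at WPP for 4 genes, at P1 for 5, at P2 for 5, at P3 for 7, at P4 for 4 and at A6 for 3, and at A1 for 0. From WPP to P1, 9 of the 28 rose and 10 fell, where 46.7% of all genes were called and the median gene moved by 0.220 on the log2 scale. From P1 to P2, 12 rose and 7 fell, against 44.8% of all genes. From P2 to P3, 9 rose and 9 fell, against 36.5%. From P3 to P4, 6 rose and 16 fell, against 37.5%, with a median log2 change of -1.31 over the 28 and 0.049 over all genes. From P4 to A1, 11 rose and 8 fell, against 38.9%. From A1 to A6, 5 rose and 15 fell, against 24.4%, with a median of -0.90 over the 28 and 0.020 over all genes.

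**Figure D1:**
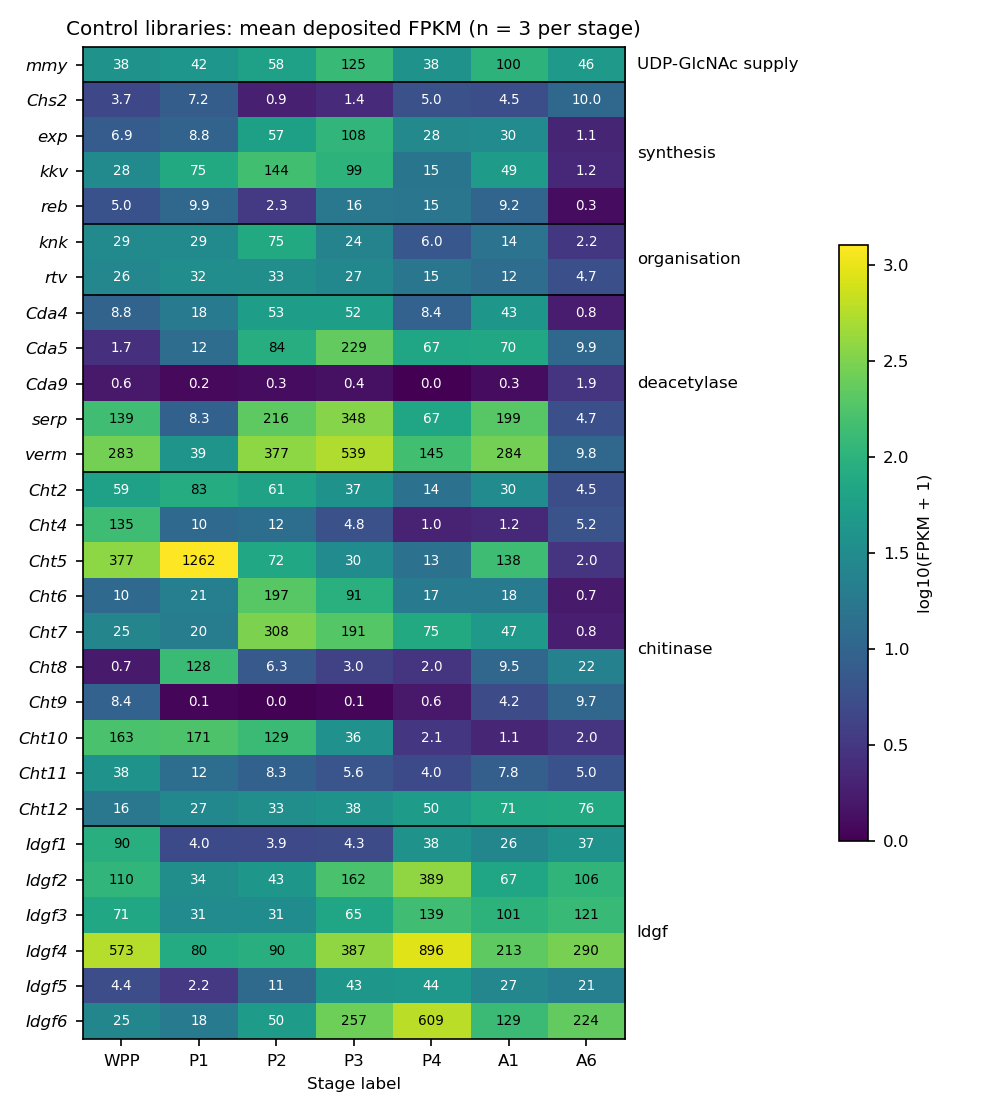
Mean deposited FPKM of each gene (rows, grouped by role) at each stage (columns) in control libraries, n = 3 per cell; colour is log10(FPKM + 1) and the number in a cell is the FPKM. The highest value is that of Cht5 at P1, and the synthesis, organisation and deacetylase genes other than Chs2, at 9.96 FPKM, stand at 9.9 FPKM or less at A6.

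The synthesis genes did not share 1 course in controls: kkv peaked at P2, exp and reb at P3 and Chs2 at A6. mmy, which encodes the enzyme that forms UDP-N-acetylglucosamine, peaked at P3 with 195, 240.4 and 228 CPM in controls against 227, 241 and 232 CPM in mutants. It was never called between genotypes (lowest adjusted p = 0.288, at P2), and its control mean stayed between 66.5 and 221 CPM, the narrowest relative range of the 26 genes whose lowest group held more than 3 counts. kkv, the chitin synthase of epidermis and trachea, rose from 171 ± 19.9 CPM at WPP to 458 ± 44.2 at P1 and 836 ± 82.3 at P2 (mean ± SD, n = 3, as throughout), then fell to 78.6 ± 3.3 at P4, rose again to 239 ± 56.5 at A1 and reached 5.75 ± 0.946 at A6. Its 1.83-fold rise from P1 to P2 and its 41.7-fold fall from A1 to A6 were both called (adjusted p = 3.02e-05 and 9.86e-20). exp, which works with reb to let kkv produce extracellular chitin, rose 8.6-fold from P1 to P2, from 28.3 ± 2.84 to 244 ± 16.3 CPM. reb, its neighbour and relative, fell 4.48-fold over the same step, from 22.9 ± 3.61 to 5.09 ± 0.968 CPM, and rose 6.41-fold to 32.9 ± 4.09 CPM at P3. The pair thus moved in opposite directions into P2, while both were above their WPP level at P3. Chs2, the chitin synthase of the gut, had another course: 35.1 ± 6.9 CPM at P1, 4.02 ± 1.08 at P2 and a highest control mean of 38.1 ± 2.53 at A6.

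Of the organising proteins, knk, which protects newly made chitin, peaked at P2 with 184, 204 and 220.5 CPM in controls, and fell 3.48-fold by P3. rtv, needed for ordered chitin fibres in the trachea, had no such peak: its control mean was 31.9 ± 1.18 CPM at P1 and 31.5 ± 3.64 CPM at P2.

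The paired deacetylase genes serp and verm lie next to each other on chromosome 3L (BDGP6, the assembly also called dm6; verm at 19690033 to 19695260 and serp at 19700977 to 19708015, both on the minus strand, 5716 bases apart). Both fell from WPP to P1 and rose from P1 to P2 in controls: serp from 322 ± 60.2 to 19.6 ± 1.88 and then to 482 ± 112 CPM, and verm from 638 ± 82.9 to 87.9 ± 4.06 and then to 809 ± 201 CPM. Cda5 rose at each step from WPP to P3, from 10.8 ± 0.857 to 79.1 ± 7.22, 588 ± 86.9 and 1119.8 ± 113 CPM. At P3 it was at 1032, 1247 and 1081 CPM in controls against 962, 1083 and 1194 CPM in mutants. Per transcript length, in deposited FPKM, verm led the deacetylases at P3 with 539 ± 68.3 FPKM, followed by serp with 348 ± 44 FPKM and Cda5 with 229 ± 23.8 FPKM. Cda4 peaked at P2 and P3, with 100.3 ± 38.8 and 89.9 ± 12.1 CPM. Cda9 was barely detected, with 191 counts in all libraries together and 9 libraries at 0.

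Among the chitinases Cht5, a secreted enzyme of cuticle turnover, reached the highest FPKM of any of the 28 genes. At P1 it was at 3057, 2596 and 2699.6 CPM in controls against 2748, 3183 and 3300.1 CPM in mutants, and in controls it fell 18.4-fold to 151 ± 31.9 CPM at P2 (adjusted p = 1.05e-09). In FPKM it stood at 1262 ± 92.8 at P1, above Cht10 at 171 ± 16.8 and Cht8 at 128 ± 17.3. Cht10, a large chitinase with several catalytic domains, stayed high from WPP to P2 (1269 ± 138, 1349 ± 152 and 977 ± 180.2 CPM) and fell 18-fold from P3 to P4. Cht7 and Cht6 had the opposite timing to Cht5: from P1 to P2 Cht7 rose 14.9-fold to 1264 ± 65.9 CPM and Cht6, which is needed for a sound cuticle, rose 7.89-fold to 1278 ± 119 CPM. Cht2 declined at each step from P1 (145 ± 8.17 CPM) to P4 (20.3 ± 5.69 CPM), and Cht11 at each step from WPP (60 ± 4.33 CPM) to P4 (5.3 ± 0.626 CPM).

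Cht8, Cht12, Cht4 and Cht9 form a cluster on chromosome 2R with no other gene between them, yet their courses differed. Cht4 and Cht9 were highest at WPP, with control means of 197 ± 80.1 and 9.28 ± 4.58 CPM. Cht8 was at 0.97 ± 0.763 CPM at WPP, 184 ± 23.7 at P1 and 8.75 ± 4.87 at P2, a single sharp peak before a smaller level of 24.7 ± 1.23 CPM at A6. Cht12 went from 27.1 ± 2.8 CPM at WPP to 98.8 ± 3.73 CPM at A6. Cht8 and Cht12 overlap by 35 bases at their ends on opposite strands, and the strand setting of the counting was not given in the sources used here, so reads in that stretch are uncertain.

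The imaginal disc growth factor genes rose late: 5 of 6 rose from P2 to P3, all but Idgf1, and 5 of 6 from P3 to P4, all but Idgf5. Idgf4 was at 976, 1119.5 and 1396 CPM in controls at P4 and at 1239, 1297 and 1219.6 CPM in mutants, its highest stage. In FPKM, Idgf4 (896 ± 153), Idgf6 (609 ± 54.6) and Idgf2 (389 ± 83.3) were the 3 highest of the 28 genes at P4. Idgf1, Idgf2 and Idgf3 sit side by side on chromosome 2L, 536 and 398 bases apart and on 1 strand. They did not share 1 course: Idgf1 fell 22.2-fold from WPP to P1 and stayed at 5.34 to 5.72 CPM through P3, while Idgf2 fell 3.25-fold and Idgf3 2.32-fold at the same step. Idgf5 was at 6.48 ± 1.2 and 3.32 ± 0.633 CPM at WPP and P1 and rose 4.62-fold and 3.62-fold at the next steps, to 55.7 ± 6.34 CPM at P3.

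The genotypes differed mainly at P2, and mostly by lower levels in the ERR mutant. There 14 of the 28 genes were called, 13 lower and 1 higher, where 11.6% of all genes were called (2.78% higher and 8.79% lower). The median log2 difference was -0.58 over the 28 genes and -0.004 over all genes. At WPP 1 gene was called higher, against 0.651% of all genes (medians -0.11 and -0.009), and at P1 3 were called lower, against 0.797% (medians -0.02 and -0.066). At P3 and P4 0 were called by edgeR and 0 by DESeq2, against 0.446% and 0.856% of all genes in edgeR. There 1 and 6 of the 28 had an unadjusted p under 0.05, a share not counted over all genes. At A1 1 was called lower, against 2.90% (medians -0.28 and 0.000), and at A6 1 higher, against 11.4% (medians -0.00 and 0.009). Counted over the stages, 17 genes had a call somewhere, 3 of them at 2 stages (exp, Cht7 and Idgf5), and 11 had none.

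**Figure D2:**
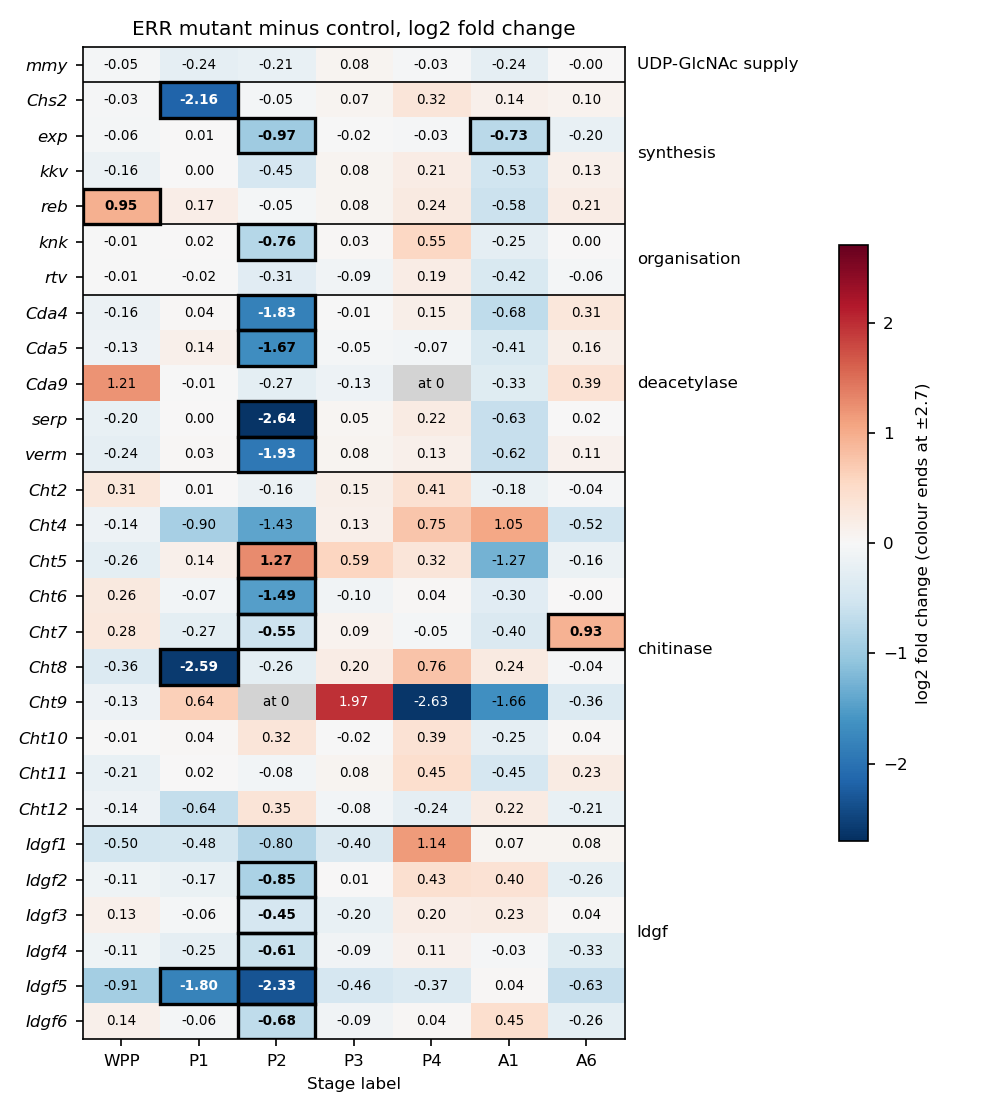
Log2 fold change of the ERR mutant minus control for each gene (rows, grouped by role) at each stage (columns), from 3 against 3 libraries in 1 fit of all 42; boxed bold values passed an adjusted p of 0.05, and grey cells had 0 counts in 1 genotype. The boxes gather in the P2 column, where 13 of 14 are negative. The large values of Cda9 and Cht9 rest on few counts and were not called.

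Of the deacetylases, 4 of 5 were called lower at P2. serp was at 508, 578 and 359 CPM in controls against 104, 58.1 and 70.3 CPM in mutants, 6.22-fold lower (log2 -2.64, SE 0.231, adjusted p = 4.81e-10). Cda5 was at 588, 676 and 502 CPM in controls against 239, 128 and 188 CPM in mutants, 3.19-fold lower (log2 -1.67, SE 0.163, adjusted p = 3.79e-09). verm was at 841, 993 and 594 CPM against 261, 173 and 201 CPM, 3.82-fold lower (log2 -1.93, SE 0.219, adjusted p = 7.89e-08). For each of these genes the lowest control library lay above the highest mutant library. Cda4 also separated, with 55.8 to 127 CPM in controls against 24.5 to 30.1 CPM in mutants (log2 -1.83, adjusted p = 6.05e-06). Cda9, at most 0.804 CPM in any P2 library, had no difference detectable at this depth.

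None of these deacetylases was called at the neighbouring stages. At P1 serp was at 19.6 ± 1.88 CPM in controls against 19.7 ± 2.42 CPM in mutants, and at P3 at 722 ± 87.1 and 749 ± 97.8 CPM. Between P1 and P2 the mean of serp therefore went from 19.6 to 482 CPM in controls and from 19.7 to 77.6 CPM in mutants, and by P3 the libraries of the genotypes overlapped. The same held for verm (1064 ± 131 and 1123 ± 159 CPM at P3), Cda5 (1119.8 ± 113 and 1079 ± 116 CPM) and Cda4 (89.9 ± 12.1 and 89.4 ± 16.6 CPM).

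Of the synthesis and organisation genes, 1 of 4 and 1 of 2 were called at P2, both lower. exp was at 229 to 261 CPM in controls against 91.2 to 155 CPM in mutants (1.96-fold lower, adjusted p = 4.66e-05). knk was at 184 to 220.5 CPM in controls against 92.6 to 150.1 CPM in mutants (1.69-fold lower, adjusted p = 0.00236). kkv, the synthase that exp and knk act with, was at 741, 884 and 883 CPM in controls against 706, 490.4 and 638 CPM in mutants, and its log2 difference of -0.45 did not pass (adjusted p = 0.0623). Leaving out replicate 1 of the P2 controls, of the P2 mutants or of the P1 mutants brought a call of lower for kkv. reb, at 4.01 to 5.88 CPM in controls against 4.36 to 5.49 CPM in mutants, overlapped between genotypes.

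The chitinases went both ways at P2, with 2 of 10 lower and 1 higher. Cht6 was at 1189, 1231 and 1413 CPM in controls against 594, 338 and 437 CPM in mutants (2.8-fold lower, log2 -1.49, SE 0.176, adjusted p = 1.67e-07). Cht7 was at 1189 to 1313 CPM in controls against 675 to 1063 CPM in mutants (1.46-fold lower, adjusted p = 0.0211). Cht5 was the only 1 of the 28 called higher: 117, 156 and 180.2 CPM in controls against 342, 363 and 389 CPM in mutants (2.41-fold, log2 1.27, SE 0.388, adjusted p = 0.0288). All 3 mutant libraries of Cht5 lay above all 3 controls, yet its SE is more than that of Cht6 and Cht7, and the call was lost when any of 5 of the 6 libraries of the stage was left out (adjusted p up to 0.0983). Cht7 was lost without any of 4 libraries, controls 2 and 3 and mutants 2 and 3 (adjusted p up to 0.177).

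Of the 6 growth factor genes 5 were called lower at P2. Idgf5 fell furthest, with 11.3, 18.6 and 16.2 CPM in controls against 2.35, 4.23 and 2.21 CPM in mutants (5.02-fold lower, log2 -2.33, SE 0.285, adjusted p = 3.2e-07). Idgf2 was at 52.2 to 63.7 CPM in controls against 27.5 to 38.6 CPM in mutants (1.8-fold lower, adjusted p = 1e-04). Idgf4, Idgf6 and Idgf3 had smaller differences of -0.61, -0.68 and -0.45 on the log2 scale (adjusted p = 0.0126, 0.0474 and 0.0107), each with groups that did not overlap. Idgf3 was lost without mutant P2 replicate 3 (adjusted p = 0.0522), Idgf4 without control 3 or mutant 2 (0.0689 and 0.108), and Idgf6 without control 2 or 3 or mutant 2 or 3 (up to 0.183). Idgf6 also missed the threshold with DESeq2's size factors and with the deposited factors in edgeR (0.0681 and 0.0753). Idgf1, at 3.58 to 7.22 CPM in controls against 1.91 to 4.12 CPM in mutants, was not called (adjusted p = 0.34).

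**Figure D3:**
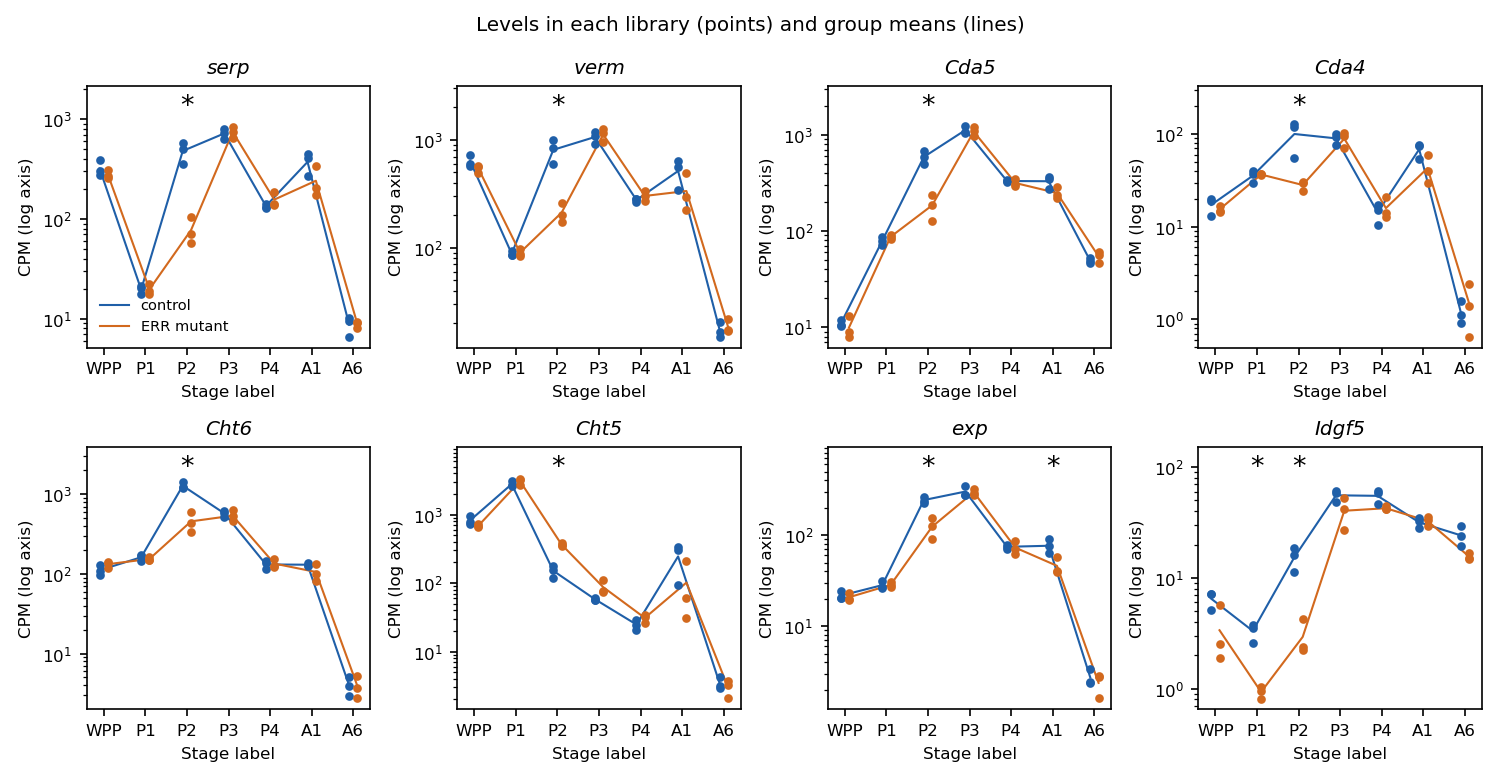
CPM on a log axis for 8 genes in every library (points) with group means (lines), control in blue and ERR mutant in orange, over the stages; an asterisk marks a stage with an adjusted p under 0.05. serp, verm, Cda5, Cda4, Cht6 and exp separate at P2 and overlap at P1 and P3, Cht5 separates upward at P2, and Idgf5 is low in mutants at P1 and P2.

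The P2 mutant libraries also stood at an earlier point of the control course. Each library was placed on that course, on which WPP is 1 and A6 is 7, by its profile over 10713 genes that change at least 2-fold between control stages, with the 28 genes left out. The P2 controls were at 3.09, 3.02 and 2.93 and the P2 mutants at 2.84, 2.76 and 2.81, a mean difference of -0.210 stages (two-sided exact permutation test, p = 0.1, the smallest that 3 against 3 allows). The part of this position in the P2 differences was not tested. The steps and the genotype difference share the P2 control libraries, and their values stand side by side as follows. From P1 to P2 in controls, serp moved by 4.61 on the log2 scale, verm by 3.20, Cda5 by 2.89, Cht6 by 2.98, exp by 3.10, Idgf5 by 2.21 and Cht5 by -4.20, while the mutant minus control differences at P2 were -2.64, -1.93, -1.67, -1.49, -0.97, -2.33 and 1.27. Idgf2, Idgf3 and Idgf4 moved by 0.30, -0.02 and 0.11, steps that were not called, with P2 differences of -0.85, -0.45 and -0.61. Cht7, knk and Idgf6 moved by 3.90, 1.31 and 1.41, with P2 differences of -0.55, -0.76 and -0.68. Cda4 rose 2.82-fold over the same control step, with a P2 difference of -1.83.

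Markers of other tissues also moved at P2. The summed level of 6 muscle genes was 6910 to 8185 CPM in controls against 3906 to 5392 CPM in mutants, with 4 of 6 called lower. The summed level of 6 genes of haemocytes, the blood cells, was 252 to 374 CPM in controls against 189 to 229.9 CPM in mutants, with 2 of 6 called lower. Most of the haemocyte sum was Pxn, with means of 292 CPM in controls and 183 CPM in mutants. Hml went the other way, with means of 3.48 and 5.69 CPM, and He was near 0. The 7 markers of epidermis and trachea, the tissues that make cuticle, overlapped in sum, at 2189.8 to 3086 and 2186 to 2899 CPM, with 2 called higher and 2 lower. Most of that sum was dyl, with means of 1933 CPM in controls and 1868 CPM in mutants. Other means were higher in mutants for sha (216 and 394 CPM) and pio (103 and 260.1 CPM). They were lower for CG16885 (179 and 15 CPM) and CG16886 (36.4 and 12.1 CPM), so the sum hides changes of single markers. The 3 male dosage compensation RNAs were at 163 to 323 CPM in controls against 346 to 532 CPM in mutants, with 0 of 3 called. Midgut markers were near 0 at this stage, at most 1.9 CPM in sum. Summed female markers were at 7.6 to 11.9 CPM in controls against 4.77 to 5.83 CPM in mutants, with 0 called. Male germ line markers overlapped, at 375 to 803 and 543 to 997 CPM. The part of these tissues and of the male and female RNAs in the P2 differences was not tested.

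At P1 Chs2, Cht8 and Idgf5 were lower in the mutant. Chs2 was at 27.6, 36.5 and 41.2 CPM in controls against 12.2, 5.81 and 5.59 CPM in mutants (4.47-fold lower, log2 -2.16, SE 0.326, adjusted p = 1.13e-04). Cht8 was at 160, 185 and 207 CPM in controls against 44.9, 30.4 and 16.9 CPM in mutants (6-fold lower, log2 -2.59, SE 0.493, adjusted p = 0.00299). Idgf5 was at 3.56, 3.79 and 2.6 CPM in controls against 0.946, 0.81 and 1.04 CPM in mutants (3.48-fold lower, log2 -1.80, SE 0.38, adjusted p = 0.00801). The groups did not overlap for any of the 3 genes.

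ERR mutant P1 replicate 1, the library that stood apart, was the highest of the mutants for Chs2 and Cht8. Without it Chs2 was lower by -2.62 on the log2 scale (adjusted p = 6.2e-06) and Cht8 by -2.96 (adjusted p = 3.4e-04), while Idgf5 was no longer called (adjusted p = 0.0727). With only the 6 P1 libraries in the fit none of the 3 was called (adjusted p from 0.339 to 0.408). Summed midgut markers at P1 were 2.69 to 3.81 CPM in controls against 1.35 to 3.11 CPM in mutants, overlapping and near 0, while summed fat body markers were 16495 to 20708 CPM in controls against 14188 to 16072 CPM in mutants with 0 of 6 called. Muscle markers, at 549 to 669 against 672 to 731 CPM, and female markers, at 9.62 to 12 against 5.68 to 8.78 CPM, did not overlap either, with 0 called. The part of these lists in the P1 differences was not tested. Chs2 and Cht8 overlapped between genotypes at P2, with 4.02 ± 1.08 and 3.88 ± 1.86 CPM for Chs2 and 8.75 ± 4.87 and 7.29 ± 1.94 CPM for Cht8, after control levels had fallen 8.71-fold and 21.2-fold.

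Cht12, the neighbour of Cht8, was low in the same P1 library as the testis transcript Mst87F. It was at 0.27 CPM in ERR mutant P1 replicate 1 and at 35.7 to 52.3 CPM in the other 5 P1 libraries, and in 10 of 14 groups the 3 libraries had the same order for Cht12 and Mst87F, a comparison chosen after the values were seen. It was never called between genotypes (log2 differences from -0.64 to 0.35).

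**Figure D4:**
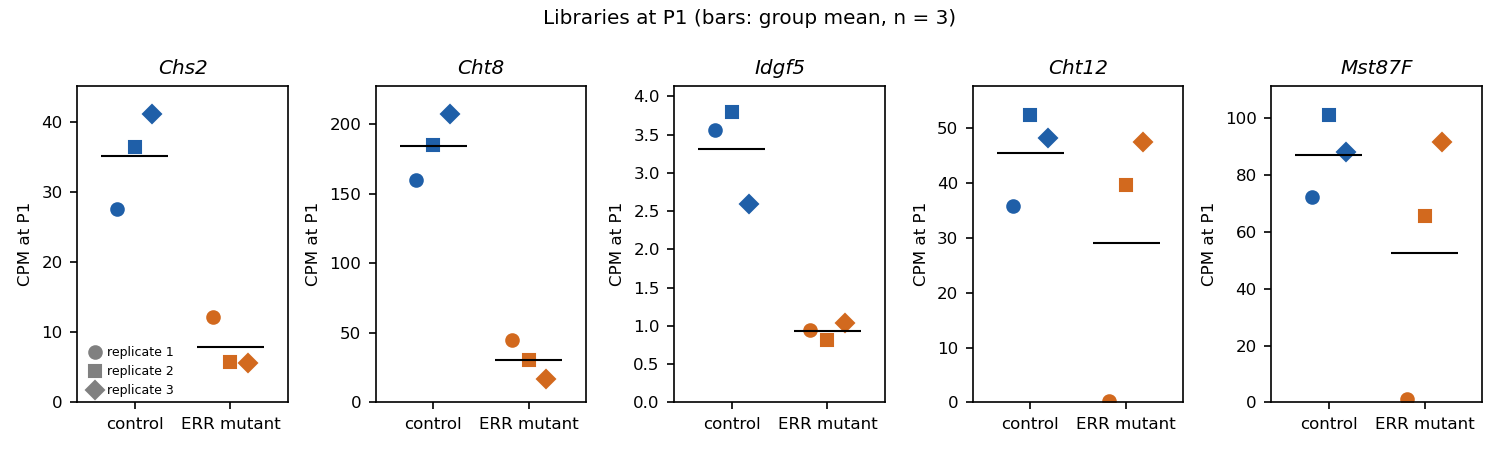
CPM at P1 in each library of control (blue) and ERR mutant (orange), with the group mean as a bar, n = 3; marker shape gives the replicate. Chs2, Cht8 and Idgf5 separate between genotypes, while Cht12 and the testis transcript Mst87F are near 0 in mutant replicate 1 only.

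At WPP reb was the only gene called, 1.93-fold higher in the mutant. It was at 12.6, 8.89 and 12.7 CPM in controls against 25.3, 22.7 and 18 CPM in mutants (log2 0.95, SE 0.18, adjusted p = 0.00318), and the groups did not overlap. The call was lost without control WPP replicate 2 (adjusted p = 0.0741) and with only the 6 WPP libraries (0.0943). Its partner exp did not separate there, at 20.2 to 24.6 CPM in controls against 19.4 to 23.4 CPM in mutants.

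At A1 exp was the only gene called, 1.66-fold lower in the mutant, with 75.9, 90 and 64.2 CPM in controls against 58, 39.9 and 40.6 CPM in mutants (log2 -0.73, SE 0.166, adjusted p = 0.00895). Other genes had negative differences that did not pass, on the log2 scale kkv at -0.53 (adjusted p = 0.0687), Cht5 at -1.27 (0.075), reb at -0.58 (0.0887), Cht9 at -1.66 (0.118), verm at -0.62 (0.126), serp at -0.63 (0.127) and Cda4 at -0.68 (0.188). In all, 15 of the 28 had an unadjusted p under 0.05 at A1, in both directions: Idgf2 and Idgf6 were among them with positive differences of 0.40 and 0.45 (adjusted p = 0.145 and 0.365). The share of all genes at an unadjusted p under 0.05 at A1 was not counted, so this number cannot be set against it. DESeq2 called Cht5, exp and kkv there.

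For some genes, libraries within the A1 groups differed by as much as the groups. Control replicate 3 and mutant replicates 2 and 3 stood at 6.19, 6.16 and 6.22 on the control course and the other 3 libraries at 5.94 to 5.95. In the later libraries Cht5 was at 93.2, 60.9 and 30.7 CPM and in the earlier ones at 339 and 303 CPM (controls) and 213 CPM (mutant). serp was at 267, 206 and 176 CPM in the later libraries and 449.9, 405 and 344 CPM in the earlier, and kkv at 174, 136 and 139 against 277, 267 and 221 CPM. For exp, the gene called, the genotypes did not overlap. It was at 64.2 CPM in the later control and 75.9 and 90 CPM in the earlier controls. In mutants it was at 39.9 and 40.6 CPM in the later libraries and 58 CPM in the earlier. Summed epidermis and trachea markers at A1 were 989.9 to 1193 CPM in controls against 668 to 1006 CPM in mutants, with 0 of 7 called, and summed haemocyte markers 165 to 211 and 97.1 to 128 CPM, with 2 of 6 called lower. The part of these tissues and of the position in the A1 values was not tested. The count of calls turned on single libraries. It was 9, all lower, without mutant A1 replicate 1 and 5 without control A1 replicate 3. It was 0 without control replicate 2 or mutant replicates 2 or 3, where exp was at adjusted p 0.103, 0.0949 and 0.0857. The share of all genes called in these fits was not counted.

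**Figure D5:**
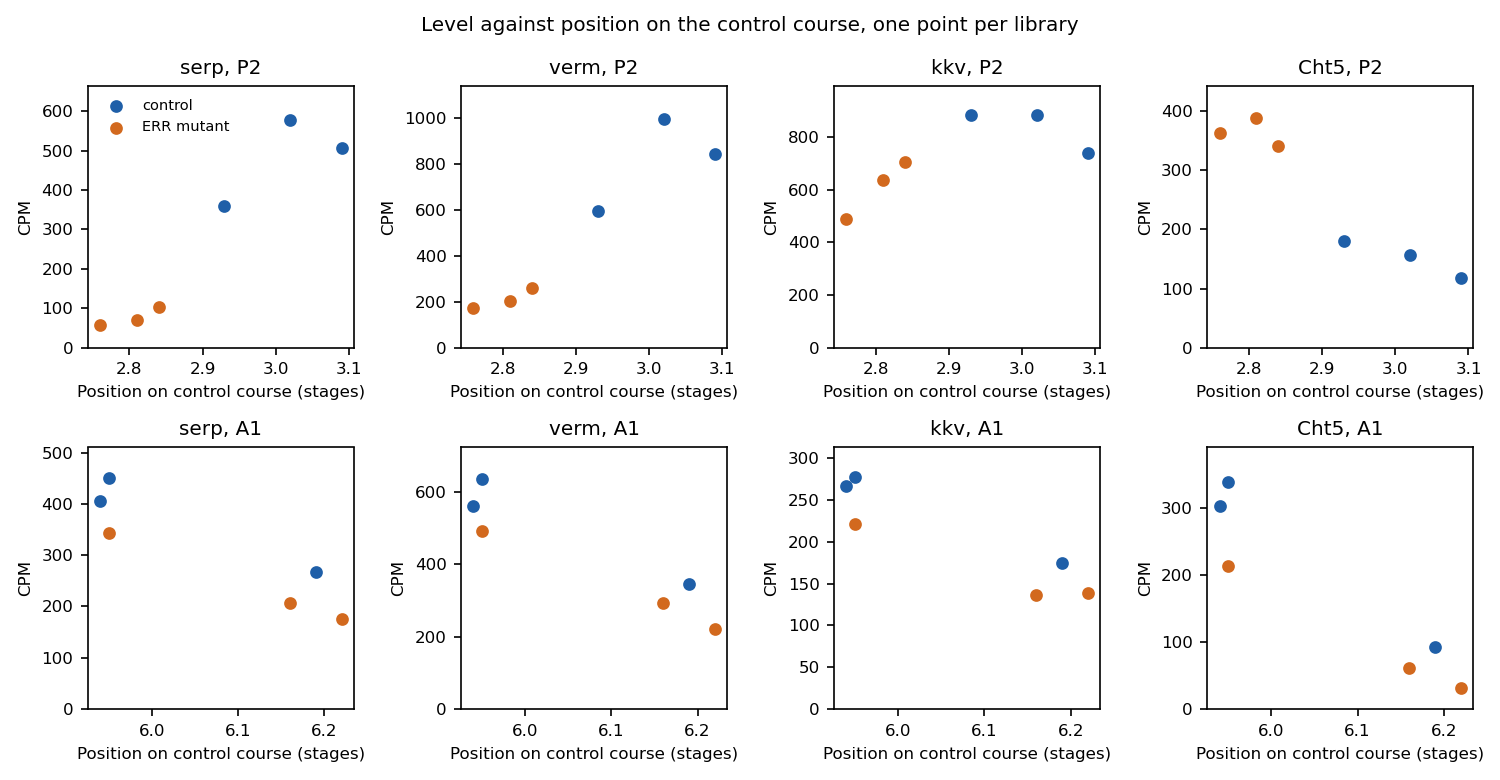
CPM of serp, verm, kkv and Cht5 against the position of each library on the control course, at P2 (upper row) and A1 (lower row); 1 point per library, control in blue and ERR mutant in orange. At P2 the genotypes occupy separate position ranges, and at A1 each genotype has libraries near 5.95 and near 6.2, the later ones with lower CPM.

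At P3 and P4 all differences missed the threshold. At P4 the growth factor genes Idgf1 and Idgf2 were higher in every mutant library: Idgf1 at 18.3, 52.3 and 67.8 CPM in controls against 121, 102 and 81.5 CPM in mutants (log2 1.14, adjusted p = 0.117), and Idgf2 at 363 to 582 and 602 to 677 CPM (log2 0.43, adjusted p = 0.17). Idgf5 was lower in every mutant library there, at 46.3 to 60.6 CPM in controls against 41.5 to 44.5 CPM in mutants (log2 -0.37, adjusted p = 0.642). Of the other genes, knk, kkv, Cht11 and the few counts of Cda9 separated upward, and the few counts of Cht9 downward. How many of all genes separated in this way was not counted. Without control P4 replicate 3, Cht2, Idgf1 and Idgf2 were called higher.

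At A6 Cht7 was called 1.91-fold higher in the mutant, at 1.98, 2.37 and 4.05 CPM in controls against 5, 7.02 and 4.03 CPM in mutants (log2 0.93, SE 0.25, adjusted p = 0.0112). The groups overlapped, and the call was lost without control replicate 1 or 2 or mutant replicate 2 (adjusted p = 0.102, 0.0607 and 0.144). Idgf5 was at 19.3 to 29.4 CPM in controls against 14.7 to 16.9 CPM in mutants, with an adjusted p of 0.0761 in edgeR; DESeq2 called it lower. With only the 6 A6 libraries in the fit, Idgf2, Idgf4, Idgf5 and Idgf6 were called lower and Cht7 higher. The share of all genes called in that fit was not counted, so these calls cannot be set against it. Summed muscle markers were higher in A6 mutants (7089 to 7769 against 4260.1 to 4348 CPM in controls, 5 of 6 called higher). Summed fat body markers were lower (564 to 612 against 1837 to 2299.9 CPM, 3 of 6 called lower). Most of the fat body sum was apolpp, with means of 2044 CPM in controls and 593 CPM in mutants. Summed midgut markers were lower (3122 to 3516 against 4957 to 5583 CPM, 3 of 6 called lower), but Mal-A1 had means of 479 CPM in controls and 552 CPM in mutants. Summed haemocyte markers were 138 to 168 CPM in controls against 97.9 to 108 CPM in mutants (1 of 6 called lower), neuron markers 678 to 746 against 780.4 to 882 CPM (1 of 5 called higher) and male dosage compensation RNAs 525 to 590.1 against 723 to 876 CPM (0 of 3 called). Female markers were at 14.6 to 16.2 CPM in controls against 9.67 to 11.6 CPM in mutants, with 0 called. On the control course the A6 controls stood at 6.95, 6.95 and 6.98 and the A6 mutants at 6.87, 6.86 and 6.90. The mean difference was -0.083 stages (two-sided exact permutation test, p = 0.1, the smallest that 3 against 3 allows). The part of these lists and of the position in the A6 values was not tested.

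Whether the genotype difference itself changed between stages was tested directly. The genotype by stage interaction was called for 15 of the 28 genes, against 12.4% of all genes, with serp (adjusted p = 7.55e-07), Cda5 (4.67e-06) and verm (4.73e-05) at the smallest p. Differences between neighbouring stages were added after the data were seen. Consecutive ones share the libraries of the stage between them with opposite sign, so they are not independent. From P1 to P2 the genotype difference became more negative for Cda5, Cda4, serp, verm, Cht6 and exp and less negative for Chs2, 7 of 28 against 3.55% of all genes. serp, for example, went by -2.64 (SE 0.327, adjusted p = 3.13e-06). Without ERR mutant P1 replicate 1 the same 7 genes and Cht8 were called, 8 in all. From P2 to P3 it moved back up for 9 of 28, against 6.28%: knk, Idgf2, exp, Cda5, Cda4, Idgf5, serp, verm and Cht6, serp by 2.69 (SE 0.312, adjusted p = 4.29e-07). From WPP to P1 it changed for Chs2 only (-2.13, adjusted p = 0.037, against 0.139% of all genes), a call lost with 2 other scalings and in 10 of 12 fits without 1 library. From A1 to A6 it changed for Cht7 only (1.34, adjusted p = 0.0107, against 2.87% of all genes).

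Other genes of the pathway were read from lists. Of 4 further genes of UDP-N-acetylglucosamine synthesis, 2 fell at P2, where 8.79% of all genes were called lower. Gfat1, which commits sugar to this pathway, was at 236, 268 and 162 CPM in controls against 142, 122 and 144 CPM in mutants (log2 -0.71, adjusted p = 7.75e-04), and nst was at 112 to 137 and 85.6 to 103 CPM (adjusted p = 0.0455), a call not made with 2 other scalings. At A6 1 of the 4 fell, Gnpnat (log2 -0.50, adjusted p = 0.0441), where 5.28% of all genes were called lower. Hexosaminidases include enzymes that split the short sugars that chitinases leave, though not every member need do so. Of 3 hexosaminidase genes (Hexo1, Hexo2 and fdl), 1 fell at P2, Hexo2 with 116 to 181 CPM in controls against 81.4 to 112 CPM in mutants (adjusted p = 0.0139). On lists of 3 and 4 genes a single call is not far from the share over all genes.

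Of 12 chitin-binding obstructor and peritrophin genes, 9 were matched, and 4 of them fell at P2, 2 at A1 and 2 at A6, where 8.79%, 1.97% and 5.28% of all genes were called lower. obst-E, which shapes the larval and pupal cuticle, was at 25.4, 28.6 and 20.6 CPM in controls against 3.73, 2.73 and 2.61 CPM in mutants (log2 -3.04, SE 0.267, adjusted p = 4.44e-10). Peritrophin-A was at 24.1, 24.5 and 5.55 CPM against 1.37, 0.682 and 1.41 CPM (log2 -4.01, adjusted p = 5.15e-09), and obst-B at 394 to 468 against 149 to 207 CPM (log2 -1.27, adjusted p = 4.21e-06). Gasp was the fourth (log2 -1.01, adjusted p = 2.47e-04), and at A1 it was called again with obst-A (log2 -1.55, adjusted p = 0.00178), and at A6 obst-A and Peritrophin-15a were called lower (log2 -2.76 and -1.15, adjusted p = 0.00415 and 0.0414). Gasp at A1 (adjusted p = 0.0492) was lost with DESeq2's size factors. These were named after their values were seen. The median log2 difference of the 9 genes was -0.56 at P2, -0.28 at A1 and -0.63 at A6, against -0.004, 0.000 and 0.009 over all genes. ChLD3, a deacetylase family gene outside the naming rule, was at 184, 229.8 and 163 CPM in P2 controls and 64.5, 44.3 and 57.9 CPM in mutants (log2 -1.79, adjusted p = 1.68e-08), and at no other stage did it pass.

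The 11 genes called at no stage were mmy, kkv, rtv, Cda9, Cht2, Cht4, Cht9, Cht10, Cht11, Cht12 and Idgf1. Among them Cht9 was at 0 in 11 libraries and at most at 14.4 CPM. Cht10 at P2, with 789, 992 and 1149 CPM in controls against 1269, 1138 and 1258 CPM in mutants, had a log2 difference of 0.32 with SE 0.168 (adjusted p = 0.249). Cht4 at P2 was at 10.6 to 20.2 CPM in controls against 4.5 to 10 CPM in mutants without overlap, but its wide spread (SE 0.615) left it uncalled (adjusted p = 0.143). Cda9 had 0 counts in all 3 P4 controls, which allows up to 3 counts in a library, and 0.249 to 1.2 CPM in the P4 mutants.

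The genes lie on all large chromosome arms, with 6 on 2L, 9 on 2R, 5 on 3L, 3 on 3R and 5 on X. exp and reb are 26777 bases apart on 2R with 2 genes between them. Exons of exp, Cht2, rtv, knk, Cht6 and Cht9 overlap exons of a gene on the other strand (PI31 for exp, CG13921 for Cht2, Lint-1 for rtv, and antisense RNAs for the rest), so a part of their reads could belong to those genes.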

How the data were processed

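RNA from whole flies was sequenced in 42 libraries. Per the submitters' processing notes, reads were handled against dm6 with the tools DESeq2 1.22.2, RSEM 1.3.1, STAR 2.7.0f and cutadapt 1.16. For annotation and strand setting, nothing is given in the sources used here. The authors deposited whole-number estimated counts per gene, a normalized signal (counts divided by size factors) and FPKM; deposited log2 values were not used. From the counts, edgeR 4.0.16 (R 4.3.3) fitted 14 groups of 3 libraries together with TMM scaling, after its expression filter left 13672 of 15038 genes, and its quasi-likelihood test gave p-values adjusted over all of them. CPM, without a prior count, and fold changes come from that fit, and between-gene levels from deposited FPKM. A prior count of 2 was used only for the log2 CPM that placed libraries on the control course. The deposited signal served only as an alternative scaling. Totals were 4308848 to 7737140 counts, and no replicate pair agreed within sampling noise (chi-square per gene 2.77 to 67.5). The scripts were tested on simulated data.

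The gene set, lists and tests were chosen with earlier results of these data known. Values in every library are given for up to 3 called genes per stage with the smallest adjusted p, and for the highest control gene of each role; others are given by range, and those outside this rule were named after their values were seen. Positions come from Ensembl 115 (BDGP6.54), which matched 14950 of 15038 identifiers. Alternatives were DESeq2 1.42.0, other size factors, other filters, fits of single stages and leaving out each library. Sequences were not analysed here.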

Additional observations from a re-analysis of the deposited data

Results flagged for a closer look

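For 15 genes the difference between ERR mutant and control was not the same at all stages, by the genotype by stage interaction in edgeR's quasi-likelihood test, adjusted over all genes with Benjamini-Hochberg. Among deacetylases the adjusted p was 7.55e-07 for serp, 4.67e-06 for Cda5, 4.73e-05 for verm and 0.00201 for Cda4. Among chitinases it was 1.1e-04 for Cht6, 0.0051 for Cht7, 0.035 for Cht8 and 0.0395 for Cht5. Among growth factor genes it was 3.27e-04 for Idgf5, 3.71e-04 for Idgf2 and 0.0311 for Idgf3. Among synthesis and organisation genes it was 0.00213 for Chs2, 0.00487 for reb, 0.00575 for exp and 0.0204 for knk.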

How the results depend on the processing

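Genes called between genotypes in the fit of all 42 libraries, and the position difference at each stage, were followed under the alternatives. Of these values 229 stayed the same (a call kept, or a position difference that moved by less than the control SD). A call was lost for 35, and 0 changed direction. Gained calls are not in this tally, and the causes were not tested. At P2, 9 genes were called under every alternative and left-out library (knk, Idgf2, exp, Cda5, Cda4, Idgf5, serp, verm and Cht6). With only the 6 libraries of a stage, calls were lost for reb (0.96), Chs2 (-2.07), Cht8 (-2.50), Idgf5 at P1 (-1.75), Idgf6 (-0.64), Idgf3 (-0.40), Idgf4 (-0.57), Cht7 at P2 (-0.51) and exp at A1 (-0.73), all on the log2 scale, so the counts were 0 at WPP, 0 at P1, 10 at P2 and 0 at A1, and 5 at A6. Idgf6 was also lost with DESeq2's size factors (-0.64) and the deposited factors (-0.63). DESeq2 itself called 3 at A1 and 2 at A6, and edgeR with DESeq2's size factors 2 at A6. Shares of all genes called were counted only for edgeR with TMM scaling in all 42 libraries and for the 2 other scalings. The change from WPP to P1 in the genotype difference counted 0 with both other scalings, and that from A1 to A6 counted 2 with both and with DESeq2.

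Leaving out 1 library at a time, the counts ranged from 0 to 2 at WPP, 2 to 3 at P1, 10 to 15 at P2, 0 to 0 at P3, 0 to 3 at P4, 0 to 9 at A1 and 0 to 2 at A6, from 0 to 1 for the change from WPP to P1, 0 to 5 for that from A1 to A6 and 12 to 17 for the interaction. Over these fits log2 values that lost a call were 0.80 for reb, -1.81 for Idgf5 at P1, -0.66 to -0.59 for Idgf6, -0.41 for Idgf3, -0.53 to -0.48 for Idgf4, -0.54 to -0.40 for Cht7 at P2, 1.12 to 1.41 for Cht5, -0.65 to -0.60 for exp at A1 and 0.68 to 0.83 for Cht7 at A6. Over all genes, DESeq2's size factors and the deposited factors moved the share of calls that were higher from 21.1% to 47.7% and 47.2% at P1, to 44.4% and 43.3% at A1, where it was 127 of 397 calls, from 53.8% to 41.7% and 42.4% at A6 and from 42.7% to 55.2% and 54.8% for control P2 to P3. No paired analysis was possible because the labels give no replicate numbers. The replicate numbers used here only follow the order of the deposited samples within each group. Genes with few counts, Cda9 and Cht9, had too little depth for small differences to be detected.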
